A study of Homo sapiens with 36 samples.

Results

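A set of 9 genes was followed across every library of 3 deposited tables: S1PR1, PTGDR2, SCN9A, EVI2B, AAK1, ITSN1, PIP5K1C, FILIP1L and BCL9L. They were selected on their measured values, as genes that were higher after LMO2 loss, TAL1 knockdown and LDB1 knockdown, so their direction in those comparisons is the reason they are described. Where it is said which of them passed a threshold there, that describes the choice and is no evidence for it. All 9 symbols stand in each table, 9 of the 60642 genes of the LMO2 table, of the 57820 of the TAL1 table and of the 13707 of the LDB1 table. All 9 also passed the filters on low values, and S1PR1, AAK1 and FILIP1L passed that of the LMO2 table through the degron lines alone.

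LMO2 is a small adaptor with no DNA binding of its own. In blood progenitors it links the DNA-binding factors TAL1 (with an E protein) and GATA to LDB1, a protein that pairs with itself and can bring distant elements to a promoter. TAL1 recognises E-boxes, short sites of the form CAGNTG, and GATA factors recognise GATA sites, often a few bases apart. The complex is best known for its part in red cell and stem cell genes, and TAL1 can also act with corepressors.

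RNA was sequenced in bulk from K562, an erythroid-like line from chronic myeloid leukaemia, and HEL, an erythroleukaemia line. In K562, 2 degron lines, labelled LMO2 degron rep 2 and rep 1 and read here as separate lines, were set beside an LMO2 control line and the parental cells. In such cells a small molecule, here dTAGv1, brings a tagged protein to a ubiquitin ligase, and the protein is broken down. All 4 lines were sampled before the agent (day 0) and after it, on days 1 and 4 (750 uM as the labels write it), with 2 libraries a line and day labelled bio rep 1 and 2, 24 in all, so that the control lines had the agent too. In HEL, siRNA pools were electroporated: TAL1 pool 2, TAL1 pool 1 and a non-targeting pool, with 3 libraries each. In a last set, K562 carried LDB1 shRNA 1, LDB1 shRNA 2 or a control shRNA, with 1 library each. The sources used here do not give what the LMO2 control line carries, which LMO2 copies the degron lines hold or whether a line is 1 clone. Nothing in the labels says that bio reps came from separate cultures, so each p measures the spread between these libraries, which may be technical.

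The LMO2 values are FPKM (fragments scaled by gene length and library size), the TAL1 values are counts, given here as CPM (counts scaled to a common library size, not by length), and the LDB1 values are TPM (scaled by length and to a common total). Depth was 17196763 to 26321635 reads in the degron set, as recovered from the FPKM steps, and 15869619 to 27029836 counts in HEL. TAL1 itself had 177, 193 and 200.4 CPM with pool 2 and 162, 190 and 182 CPM with pool 1, against 432, 470 and 490.2 CPM with the non-targeting pool. LDB1 had 62.4 TPM with shRNA 1 and 69.6 TPM with shRNA 2, against 468 TPM with the control shRNA. LMO2 RNA, which does not report protein loss through a degron, had 128 to 271 FPKM in the degron lines, 212 to 443 FPKM in the LMO2 control line and 31.2 to 46.6 FPKM in the parental line. In bulk RNA, fewer cells of a type and less RNA per cell cannot be told apart.

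Promoter sequence was read for the genes from the RefSeq table (GRCh38.p14; 250 bases before a start), which held 8 windows for 6 of the 9 genes: 1 each for S1PR1, SCN9A, PIP5K1C and ITSN1, 2 for FILIP1L and 2 for AAK1 that start 1 base apart. PTGDR2, EVI2B and BCL9L are named only. The windows were searched on both strands for the E-box CAGNTG, the GATA motif GATAA and the composite CTG, 7 to 9 bases, then GATAA, which contains the GATA motif. The E-box was found once in S1PR1, once in SCN9A and at 2 places in 1 of the 2 FILIP1L windows, and in no window of AAK1, PIP5K1C or ITSN1. GATAA and the composite were found in none of the 8 windows. Over all 35116 promoters of that table, 42.5% held CAGNTG, 20.4% held GATAA and 1.59% held the composite. The windows with an E-box are shown with the matches in capitals (in either strand's spelling), and that of AAK1 as 1 without any, each 5′ to 3′ on the gene's strand.
S1PR1 chr1:101236769-101237018 (plus strand): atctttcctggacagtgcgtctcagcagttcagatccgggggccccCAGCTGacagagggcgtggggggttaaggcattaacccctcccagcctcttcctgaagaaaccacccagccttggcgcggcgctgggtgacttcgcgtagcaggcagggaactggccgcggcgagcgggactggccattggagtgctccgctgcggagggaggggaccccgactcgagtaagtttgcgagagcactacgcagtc
SCN9A chr2:166375945-166376194 (minus strand): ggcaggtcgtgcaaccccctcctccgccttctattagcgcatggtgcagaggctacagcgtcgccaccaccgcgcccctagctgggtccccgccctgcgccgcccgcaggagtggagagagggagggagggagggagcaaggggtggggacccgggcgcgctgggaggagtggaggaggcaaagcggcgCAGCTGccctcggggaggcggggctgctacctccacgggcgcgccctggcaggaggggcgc
FILIP1L chr3:100114502-100114751 (minus strand): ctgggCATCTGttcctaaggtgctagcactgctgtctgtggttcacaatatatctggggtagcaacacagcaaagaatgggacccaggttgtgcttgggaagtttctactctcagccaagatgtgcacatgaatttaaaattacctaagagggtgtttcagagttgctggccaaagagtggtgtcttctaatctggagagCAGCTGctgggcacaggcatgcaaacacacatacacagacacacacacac
AAK1 chr2:69643740-69643989 (minus strand): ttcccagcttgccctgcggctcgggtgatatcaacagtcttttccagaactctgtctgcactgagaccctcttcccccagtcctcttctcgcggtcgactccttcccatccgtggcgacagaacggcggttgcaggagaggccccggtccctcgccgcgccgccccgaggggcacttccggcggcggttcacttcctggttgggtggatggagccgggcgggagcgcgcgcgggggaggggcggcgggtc
GC content ran from 48.0% in the FILIP1L window shown to 75.6% in the other FILIP1L window, against a median of 58.0% over all promoters. A match is a stretch of letters and says nothing on binding.

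All 9 genes stood higher in the degron lines than in the control lines on day 4, from 2.23-fold for BCL9L to 25.4-fold for S1PR1 as ratios of mean FPKM. Part of that difference was already there on day 0, before dTAGv1, and the rest came between day 0 and day 4. The change tied to the degron was the mean change from day 0 over both degron lines minus that over the LMO2 control and parental lines, on the log2(FPKM + 1) scale, which understates the change of low genes. On day 4 it passed an adjusted p of 0.05 (limma, Benjamini-Hochberg) for all 9, which the choice of these genes used. Over 22 alternative settings 6 to 9 of them passed. Of all 15348 genes tested, 11.6% passed as higher and 8.18% as lower.

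S1PR1 encodes a G protein-coupled receptor for sphingosine 1-phosphate, a lipid of blood and lymph that guides lymphocytes out of tissues. In degron line 2 it had 0.411 and 0.358 FPKM on day 0, 1.14 and 1.19 on day 1 and 1.63 and 2.61 on day 4. In degron line 1 it had 0.318 and 0.194 FPKM on day 0, 0.844 and 1.01 on day 1 and 1.72 and 2.89 on day 4. The LMO2 control and parental lines together lay between 0 and 0.161 FPKM (median 0.0511) over 12 libraries. The lowest degron library on day 0 was above the highest library of either control line, and the day 4 libraries were above those of day 1, which were above those of day 0. The day 4 levels rest on 174 and 293 reads in line 2 and 202 and 351 in line 1, while the control lines had 0 to 21 reads. The day 4 change tied to the degron was 1.22 ± 0.17 (SE) log2; the pseudocount of 1 is above every control-line level of this gene, and with 0.1 the change was 2.13.

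PTGDR2 encodes a receptor for prostaglandin D2, best known on eosinophils, basophils and type 2 helper T cells. In degron line 2 it had 5.37 and 7.23 FPKM on day 0, 19.1 and 23.3 on day 1 and 26.8 and 19.7 on day 4. In degron line 1 it had 3.82 and 4.06 FPKM on day 0, 13.1 and 16.5 on day 1 and 24.1 and 23.2 on day 4. The control lines lay between 0.907 and 3.26 FPKM (median 1.74). PTGDR2 had most of its log2 change by day 1. Its day 1 change of 1.44 ± 0.31 log2 was 82.9% of its day 4 change of 1.74 ± 0.31, the highest share among the 9 with the pseudocount of 1. In degron line 2 the day 1 and day 4 libraries overlapped, while in degron line 1 both day 4 libraries were above both day 1 libraries. The degron libraries of day 1 did not overlap those of day 0.

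SCN9A encodes the pore-forming subunit of a voltage-gated sodium channel known from pain-sensing neurons. In degron line 2 it had 5.38 and 8.61 FPKM on day 0, 10.99 and 14.8 on day 1 and 29.1 and 26.2 on day 4. In degron line 1 it had 4.09 and 6.74 FPKM on day 0, 6.09 and 10.5 on day 1 and 19.8 and 19.3 on day 4. The control lines lay between 0.481 and 3.14 FPKM (median 1.39), with the parental line at 0.481 to 1.39 FPKM and the LMO2 control line at 1.18 to 3.14 FPKM. The degron libraries on day 4 were all above those on day 1, and the day 1 libraries overlapped those of day 0. Its change tied to the degron was 0.69 ± 0.33 log2 on day 1 and 1.49 ± 0.33 on day 4.

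EVI2B encodes a membrane protein of blood cells that lies within an intron of NF1 and has been tied to myeloid differentiation. In degron line 2 it had 3.61 and 8.35 FPKM on day 0, 12.8 and 15.5 on day 1 and 17.2 and 23.02 on day 4. In degron line 1 it had 2.56 and 4.88 FPKM on day 0, 7.30 and 9.28 on day 1 and 14.5 and 18.5 on day 4. The control lines lay between 0.127 and 1.76 FPKM (median 0.761). Bio rep 2 was above bio rep 1 in every line on every day, yet the lowest degron library on day 0 was above the highest control-line library. The day 4 change tied to the degron was 1.63 ± 0.39 log2, made up of 1.87 within bio rep 1 and 1.39 within bio rep 2.

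FILIP1L encodes a coiled-coil protein related to the filamin-binding protein FILIP1. In degron line 2 it had 1.71 and 1.66 FPKM on day 0, 3.28 and 3.47 on day 1 and 8.75 and 13.6 on day 4. In degron line 1 it had 0.894 and 0.845 FPKM on day 0, 1.47 and 1.96 on day 1 and 4.23 and 4.46 on day 4. The control lines lay between 0.321 and 0.796 FPKM (median 0.603). FILIP1L was the latest of the 9: its day 1 change of 0.57 ± 0.17 log2 was 30.8% of its day 4 change of 1.84 ± 0.17, the lowest share, and every day 4 degron library was above every day 1 one. Within each bio rep the day 4 change was alike, at 1.83 and 1.85 log2.

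A group of 3 genes serves clathrin-mediated endocytosis. AAK1 encodes a kinase that phosphorylates the AP2 adaptor, ITSN1 a scaffold that binds proteins of the clathrin coat, and PIP5K1C a kinase that makes the membrane lipid PIP2, which AP2 binds. AAK1 had 3.92 and 4.18 FPKM in degron line 2 and 2.94 and 2.67 in degron line 1 on day 4, against 0.509 and 0.554 in the LMO2 control line and 0.493 and 0.630 in the parental line. On day 0 the degron lines had 1.49 and 1.44 FPKM (line 2) and 1.08 and 0.833 FPKM (line 1), so the degron and control lines did not overlap on either day. ITSN1 had 5.92 and 6.15 FPKM in degron line 2 and 4.64 and 4.68 in degron line 1 on day 4, against 1.54 and 1.68 in the LMO2 control line and 0.642 and 1.33 in the parental line. PIP5K1C, per length the most abundant of the 9 in control cells, had 24.4 and 27.7 FPKM in degron line 2 and 20.6 and 24.6 in degron line 1 on day 4, against 9.32 and 11.95 in the LMO2 control line and 6.88 and 10.3 in the parental line. For ITSN1 and PIP5K1C, all degron libraries on day 4 were above those of day 0, and those of day 0 above all control-line libraries. The day 4 changes tied to the degron were 0.88 ± 0.13 log2 for AAK1, 0.80 ± 0.18 for ITSN1 and 0.63 ± 0.20 for PIP5K1C.

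BCL9L encodes a coactivator that joins beta-catenin to the PYGO proteins in transcription driven by WNT signals. It had 7.60 and 8.99 FPKM in degron line 2 and 4.19 and 5.34 in degron line 1 on day 4, against 2.81 and 3.14 in the LMO2 control line and 2.54 and 3.22 in the parental line. On day 0 it had 4.22 and 4.87 FPKM in degron line 2 and 2.77 and 2.40 in degron line 1, against 2.61 and 2.82 in the LMO2 control line and 2.13 and 3.19 in the parental line. Of the 9, BCL9L alone had degron line 1 within the range of the control lines on day 0, and its day 4 libraries overlapped those of day 0 when both degron lines were pooled. Its day 4 change tied to the degron was 0.62 ± 0.16 log2, the smallest of the 9.

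**Figure D1:**
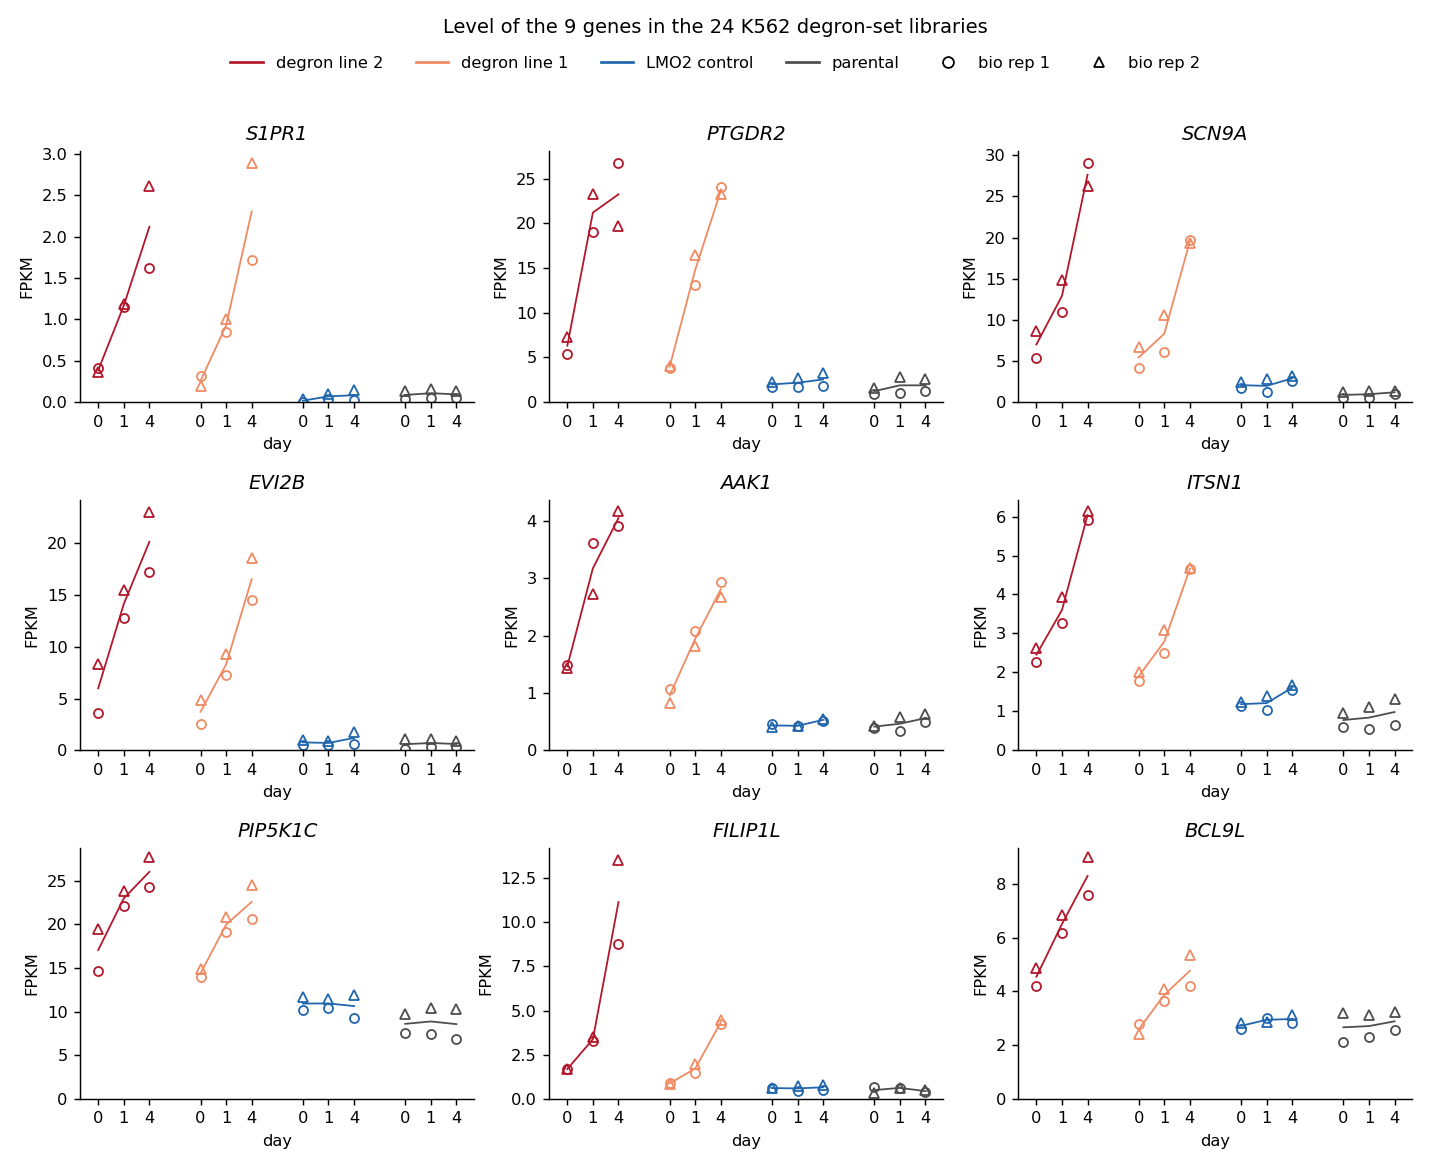
Level (FPKM, linear axis from 0) of each of the 9 genes in the 24 K562 libraries, by line from left to right (degron line 2, degron line 1, LMO2 control, parental) and by day within a line, with a point for each bio rep and a line through the mean of each day. The degron lines rise over the days above near-flat control lines, with S1PR1 reaching 2.61 and 2.89 FPKM on day 4 in the higher bio rep of lines 2 and 1, while no control-line library passed 0.161 FPKM.

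The first of these differences predates dTAGv1. As ratios of mean FPKM on day 0, degron over control lines, the 9 genes ran from 1.33 for BCL9L and 1.61 for PIP5K1C to 6.34 for S1PR1 and 7.08 for EVI2B. The S1PR1 ratio rests on 0 to 16 reads in the day 0 control-line libraries, and without parental bio rep 2 it was 13.1, above that of EVI2B. In 8 of the 9, all except BCL9L, each of the 4 day 0 degron libraries was above all 12 control-line libraries, a pattern that 5.86% of all genes tested show. Among the 8 are S1PR1, AAK1 and FILIP1L, which passed the filter on low values through the degron lines alone. The 12 libraries include those of day 4, which the choice of the genes used or may have used, so this count is a description. From day 0 to day 4 the degron lines then went up by 1.55-fold (PIP5K1C) to 6.91-fold (S1PR1), and in 8 of the 9, again except BCL9L, the day 4 libraries did not overlap those of day 0, as for 24.9% of all genes. That rise entered the choice, so this count too is a description. The control lines moved little: their mean changes from day 0 to day 4 lay between -0.04 log2 (PIP5K1C) and 0.35 log2 (SCN9A) in the LMO2 control line, and between -0.05 log2 (FILIP1L) and 0.34 log2 (PTGDR2) in the parental line.

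On day 1 the change tied to the degron was positive for all 9, from 0.37 log2 for ITSN1 to 1.44 for PTGDR2, but none passed the adjusted threshold (limma, Benjamini-Hochberg). Of all genes, 0.0261% passed as higher and 0.0521% as lower on day 1, so few calls of any kind were made there. With the bio rep number as a block, AAK1, PTGDR2 and EVI2B passed, beside 0.463% of all genes as higher. Day 1 shares its day 0 libraries with the day 4 change that chose the genes, and AAK1 passed the filter on low values through the degron lines alone, so these calls are a description too. PTGDR2 (82.9%), AAK1 (74.2%), PIP5K1C (65.8%), EVI2B (65.4%) and BCL9L (62.5%) had most of their day 4 change by day 1. ITSN1 (46.5%), SCN9A (46.1%), S1PR1 (47.9%) and FILIP1L (30.8%) had less. The shares depend on the pseudocount: with 0.1 the changes on day 1 and day 4 were 0.966 and 1.14 log2 for AAK1 and 1.13 and 2.13 for S1PR1. These shares have no test of their own.

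Both degron lines showed each change, as part of the comparison that chose the genes. In log2, day 4 minus day 0, FILIP1L moved by 2.15 in line 2 and 1.51 in line 1, PTGDR2 by 1.73 in line 2 and 2.32 in line 1, EVI2B by 1.67 in line 2 and 1.93 in line 1, and SCN9A by 1.87 in line 2 and 1.71 in line 1. The difference between the lines, which the rule that chose the genes does not name, was tested over all 15348 genes, of which 0.013% passed. None of the 9 did: the adjusted p was 1.0 for each (limma, Benjamini-Hochberg). The rule does not say whether a rise in each line was asked for, which by itself would favour small differences. S1PR1, AAK1 and FILIP1L also entered the genes tested through these lines alone. The widest differences, line 2 minus line 1, were 0.63 (95% interval 0.12 to 1.15) log2 for FILIP1L and -0.59 (95% interval -1.53 to 0.34) for PTGDR2. That of AAK1 was 0.07 (95% interval -0.31 to 0.45), and that of EVI2B -0.26 (95% interval -1.43 to 0.92). With the bio rep number as a block the 95% intervals were 0.16 to 1.11 for FILIP1L and -1.28 to 0.10 for PTGDR2. They were -0.30 to 0.44 for AAK1 and -0.77 to 0.26 for EVI2B, and none of the 9 passed with the block. The lines were thus not shown to respond alike.

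Before dTAGv1, line 2 was above line 1 in the mean of all 9 genes, a comparison added after the values were seen. None passed in the fit without a block, where 1.79% of all genes did. The largest difference was BCL9L at 0.63 (95% interval 0.28 to 0.97) log2, with an adjusted p of 0.0678 (limma, Benjamini-Hochberg). With the bio rep number as a block, BCL9L passed at an adjusted p of 0.00707, beside 4.02% of all genes, and no other of the 9 did, FILIP1L (0.52 log2) having an adjusted p of 0.0896. Between the LMO2 control and parental lines on day 0, none of the 9 passed without the block, where 1.82% of all genes did. SCN9A was 0.73 (95% interval 0.03 to 1.43) log2 higher in the LMO2 control line, with an adjusted p of 0.439 without the block and 0.0469 with it, beside 4.63% of all genes. The other 8 differed by -0.09 log2 (S1PR1) to 0.43 log2 (PTGDR2) and passed in neither fit.

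Several of the genes also differed between the bio reps. Bio rep 2 minus bio rep 1, tested after the values were seen in the fit with the block, was 0.55 log2 for EVI2B (adjusted p 4.4e-05), 0.42 for SCN9A (0.000701), 0.33 for PTGDR2 (0.00993), 0.25 for PIP5K1C (0.000331), 0.20 for ITSN1 (0.00445) and 0.16 for BCL9L (0.0140; limma, Benjamini-Hochberg). S1PR1, FILIP1L and AAK1 did not pass, at 0.13, 0.10 and -0.02 log2. Of all genes, 23.8% were called higher in bio rep 2. Within each bio rep number the day 4 change tied to the degron was positive for all 9, a sign that the choice of the genes used or may have used. It ran from 0.46 (BCL9L) to 2.13 (PTGDR2) log2 in bio rep 1 and from 0.54 (PIP5K1C) to 1.85 (FILIP1L) in bio rep 2.

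In HEL cells the 9 genes divided by how far the values of the TAL1 pools were alike, although both pools left TAL1 at a like level. EVI2B had 1.30, 1.35 and 1.39 CPM with pool 2 and 7.02, 10.1 and 8.43 with pool 1, against 1.22, 0.812 and 0.514 with the non-targeting pool. Its counts were 33, 26 and 22 with pool 2, 160, 227 and 178 with pool 1 and 33, 19 and 12 with the non-targeting pool. Every pool 1 library was several-fold above every other library, and the pool 2 libraries lay just above the highest non-targeting one.

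S1PR1 had 3.62, 2.74 and 2.77 CPM with pool 2 and 11.4, 8.56 and 8.10 with pool 1, against 2.40, 1.80 and 2.14 with the non-targeting pool. FILIP1L had 15.0, 16.6 and 12.7 CPM with pool 2 and 26.5, 26.7 and 29.5 with pool 1, against 9.47, 9.36 and 11.8 with the non-targeting pool. SCN9A had 25.3, 25.7 and 26.8 CPM with pool 2 and 35.4, 39.9 and 44.8 with pool 1, against 16.3, 19.2 and 17.0 with the non-targeting pool. In these 3 genes the pools and the non-targeting libraries formed 3 separate ranges, with pool 1 on top and pool 2 between.

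In the other 5 genes the levels with both pools lay closer. AAK1 had 12.5, 12.6 and 12.6 CPM with pool 2 and 15.0, 14.8 and 14.3 with pool 1, against 8.07, 8.42 and 7.96 with the non-targeting pool. PTGDR2 had 9.61, 13.9 and 12.04 CPM with pool 2 and 13.7, 14.6 and 12.2 with pool 1, against 6.40, 6.07 and 6.42 with the non-targeting pool. In both genes each pool lay wholly above the non-targeting libraries. BCL9L had 41.9 ± 1.60 CPM with pool 2, 39.0 ± 0.928 with pool 1 and 28.8 ± 1.93 with the non-targeting pool (mean ± SD, n = 3 each). ITSN1 had 56.3 ± 2.99 CPM with pool 2, 59.7 ± 2.27 with pool 1 and 44.1 ± 4.49 with the non-targeting pool. PIP5K1C had 41.5 ± 7.12 CPM with pool 2, 46.9 ± 4.76 with pool 1 and 30.2 ± 3.79 with the non-targeting pool, and 1 pool 2 library, at 33.3 CPM, was below the highest non-targeting one, at 34.5 CPM.

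**Figure D2:**
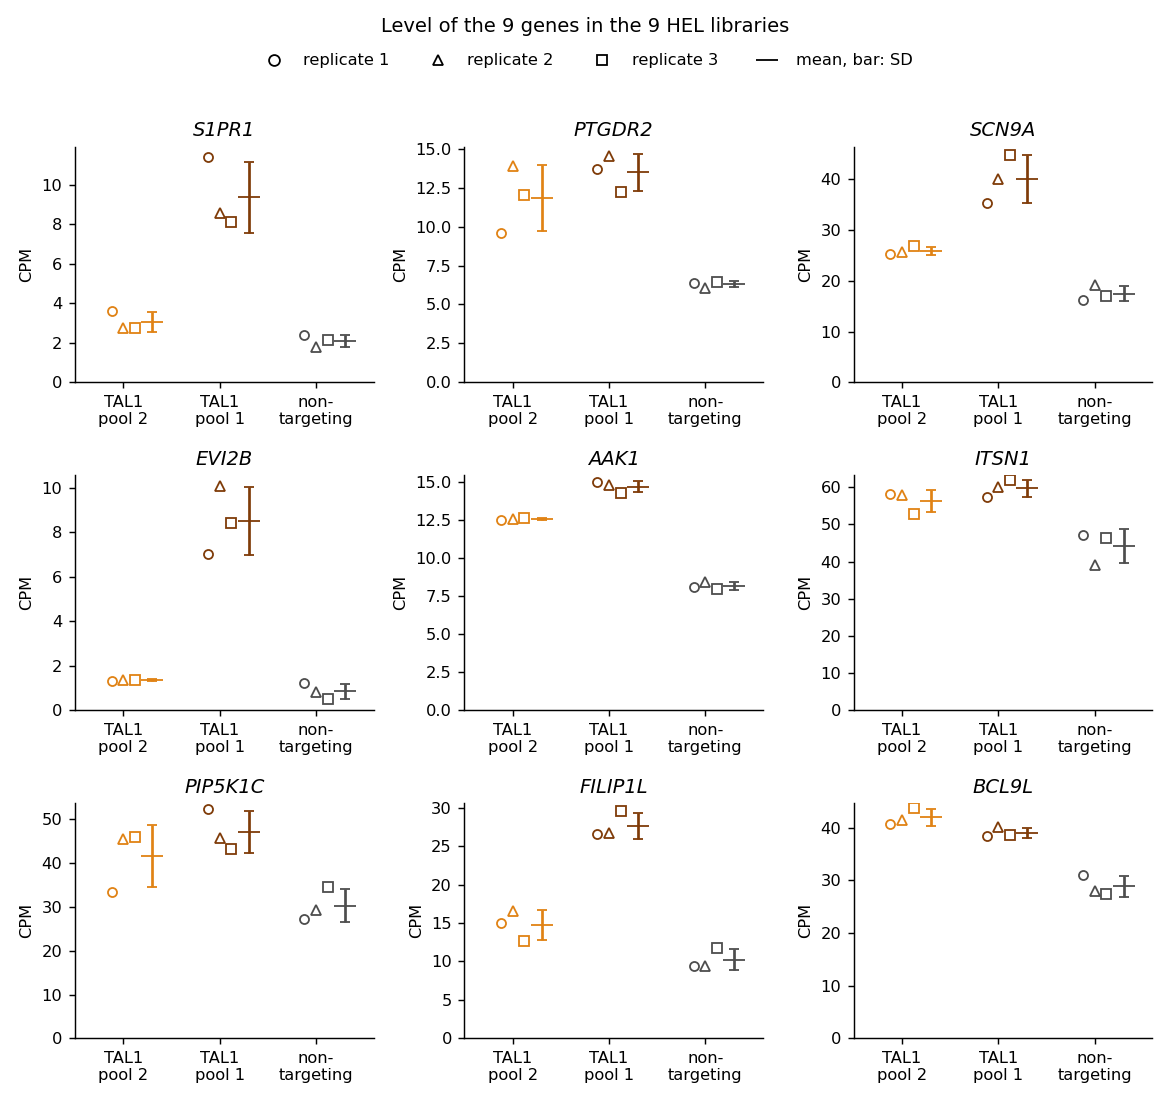
Level (CPM, linear axis from 0) of each of the 9 genes in the 9 HEL libraries, with a point for each library and a bar for the mean of pool 2, pool 1 and the non-targeting pool, from left to right. EVI2B, S1PR1, FILIP1L and SCN9A stand highest with pool 1 (8.51, 9.36, 27.6 and 40.1 CPM on average) and lower with pool 2 (1.34, 3.05, 14.8 and 25.9 CPM), while BCL9L averages 41.9 CPM with pool 2 and 39.0 with pool 1.

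Against the non-targeting pool, all 9 were called with pool 1 and 4 with pool 2, values that the choice of the genes used or may have used. With pool 1 the changes ran from 0.44 ± 0.10 log2 (ITSN1) to 3.30 ± 0.29 (EVI2B), and 2.56% of all 16688 genes tested were called higher and 1.65% lower (edgeR, Benjamini-Hochberg adjusted p under 0.05). With pool 2 they ran from 0.33 ± 0.10 (ITSN1) to 0.88 ± 0.16 (PTGDR2), the called ones being AAK1, SCN9A, PTGDR2 and BCL9L, while 0.491% of all genes were called higher and 0.563% lower. The pool 2 count hung on single libraries: it was 0 with only the 2 groups in the fit and without non-targeting replicate 2 or 3 or pool 2 replicate 2 or 3, and 2 without non-targeting replicate 1. The pool 1 count was 6 to 9 over 11 alternatives, with 6 without non-targeting replicate 2 or pool 1 replicate 2. All 3 pool 1 libraries were above all 3 non-targeting libraries in 9 of the 9 genes (11.1% of all genes), and all 3 pool 2 libraries in 8 (9.2% of all genes).

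The rule that chose the genes does not say which pool it read, and all 9 were called with pool 1. If pool 1 chose them, pool 2 minus pool 1 is not independent of the choice, which by itself would favour lower values with pool 2, and the p given here are then too small. The difference between the pools was tested for every gene (edgeR, quasi-likelihood, Benjamini-Hochberg), and 4 of the 9 were lower with pool 2. EVI2B differed by -2.68 (95% interval -3.28 to -2.08) log2, with an adjusted p of 0.000518, and was lower in 3 of 3 pool 2 libraries than in any pool 1 library. S1PR1 differed by -1.63 (95% interval -2.11 to -1.15), with an adjusted p of 0.00273. FILIP1L differed by -0.92 (95% interval -1.22 to -0.62), with an adjusted p of 0.00399. SCN9A differed by -0.65 (95% interval -0.89 to -0.41), with an adjusted p of 0.00790. For these 3 too, all pool 2 libraries were below all pool 1 libraries, as they were for AAK1, 5 of the 9 in all, beside 9.46% of all genes. By the test, 1.68% of all genes were called lower with pool 2.

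For the other 5 genes no difference between the pools passed. BCL9L differed by 0.08 (95% interval -0.12 to 0.28) log2, ITSN1 by -0.11 (95% interval -0.32 to 0.11) and AAK1 by -0.25 (95% interval -0.51 to 0.01). PIP5K1C differed by -0.21 (95% interval -0.50 to 0.08) and PTGDR2 by -0.22 (95% interval -0.55 to 0.11). Their adjusted p (edgeR, Benjamini-Hochberg) ran from 0.347 for AAK1 to 0.750 for BCL9L. The intervals of PTGDR2, AAK1 and PIP5K1C reach to about -0.5 log2 with pool 2. Over 11 alternatives EVI2B, S1PR1 and FILIP1L passed in 11 and SCN9A in 10, the exception being the fit without pool 2 replicate 2, where SCN9A was -0.64 log2 with an adjusted p of 0.0557.

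**Figure D3:**
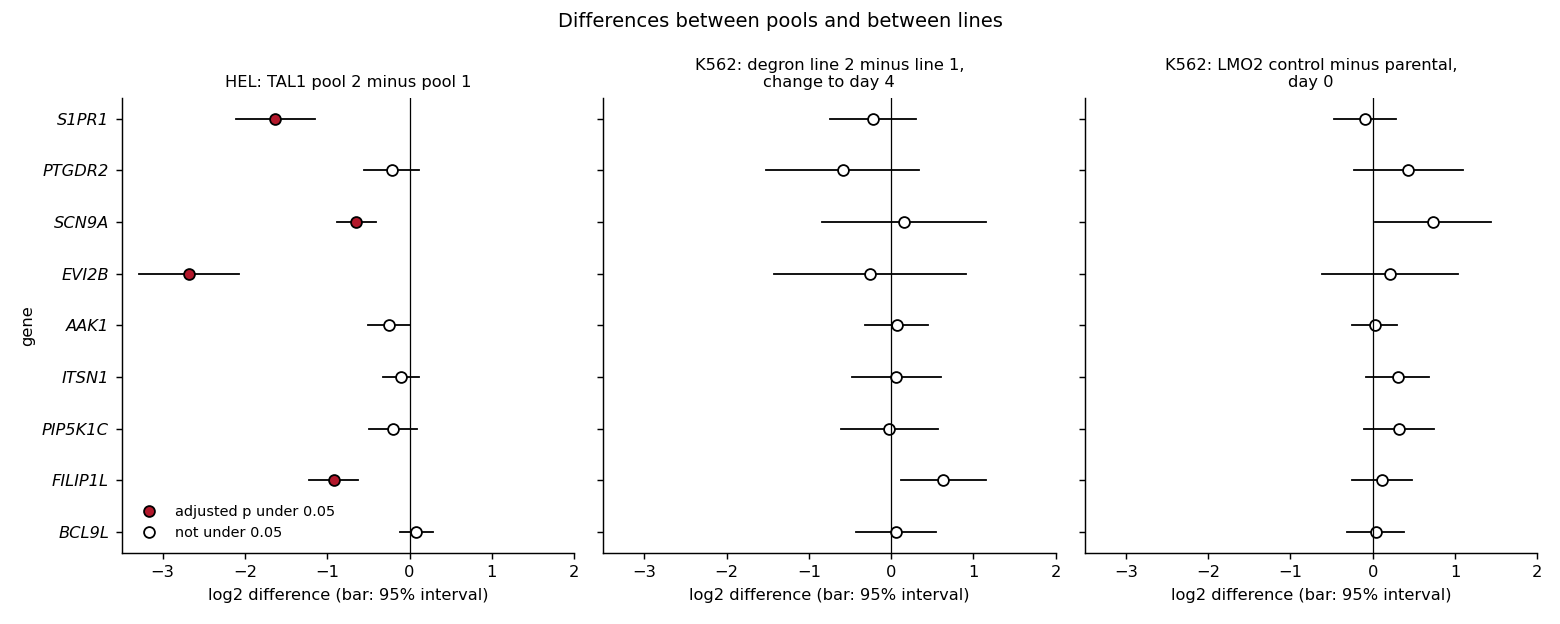
Differences on a log2 axis with 95% intervals, with filled points at an adjusted p under 0.05. The panels show pool 2 minus pool 1 in HEL, and line 2 minus line 1 and LMO2 control minus parental in K562. The choice of the genes may have used the first through pool 1. Its rule names neither difference between lines, but does not say whether a rise in each degron line was asked for. EVI2B (-2.68), S1PR1 (-1.63), FILIP1L (-0.92) and SCN9A (-0.65) are filled in the panel of the pools, and no point is filled in the panels of the lines.

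The LDB1 set gave 1 library for each shRNA, so its values have no replicate check and no test, and their depth is unknown. EVI2B had 30.4 TPM with shRNA 1 and 21.4 with shRNA 2, against 1.07 with the control shRNA. S1PR1 had 11.4 TPM with shRNA 1 and 7.77 with shRNA 2, against 0.376 with the control shRNA. SCN9A had 35.4 TPM with shRNA 1 and 24.1 with shRNA 2, against 2.76 with the control shRNA. With shRNA 1 and shRNA 2 these are 28.5 and 20.0 times the control for EVI2B, 30.3 and 20.7 for S1PR1 and 12.8 and 8.72 for SCN9A, the 3 largest ratios. PTGDR2 had 50.1 TPM with shRNA 1 and 37.3 with shRNA 2, against 5.32 with the control shRNA. AAK1 had 16.4 TPM with shRNA 1 and 14.4 with shRNA 2, against 2.35 with the control shRNA. FILIP1L had 10.2 TPM with shRNA 1 and 9.87 with shRNA 2, against 2.41 with the control shRNA, and differed least between the shRNAs. ITSN1, BCL9L and PIP5K1C were 4.06 and 3.45, 2.77 and 2.47 and 2.69 and 2.30 times the control with shRNA 1 and shRNA 2. Every one of the 9 was higher with shRNA 1 than with shRNA 2, and all 9 passed the fold used for this set, a log2 ratio of 1 or more on the (TPM + 1) scale, with both, from 1.18 to 3.93, which the choice of the genes used. Of 12445 genes with at least 5 TPM in some library, 8.94% reached that as higher and 2.21% as lower.

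**Figure D4:**
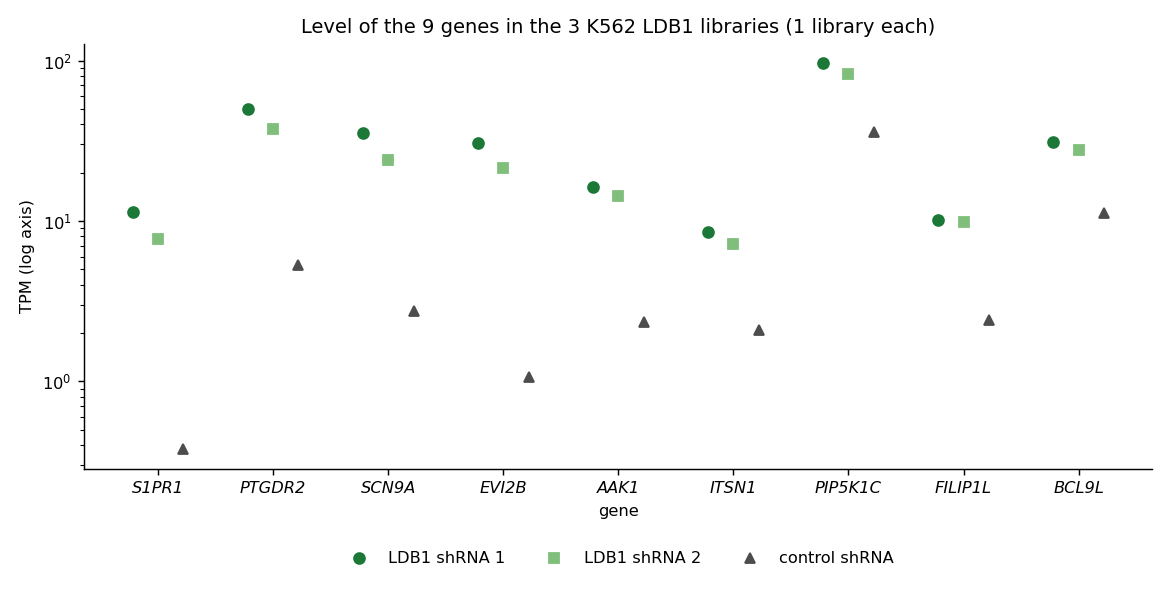
Level (TPM, log axis) of the 9 genes in the 3 K562 libraries of the LDB1 set, 1 library each for shRNA 1, shRNA 2 and the control shRNA. Both shRNA libraries stand above the control for every gene, from 96.2 and 82.4 against 35.8 TPM for PIP5K1C to 11.4 and 7.77 against 0.376 TPM for S1PR1.

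The order of the genes in the K562 sets depended on the measure. As ratios of mean levels, S1PR1 and EVI2B led both after LMO2 degradation (25.4 and 20.1, day 4 over control lines) and with LDB1 shRNA 1 (30.3 and 28.5), and BCL9L and PIP5K1C were last in both (2.23 and 2.53, against 2.77 and 2.69). FILIP1L stood higher in that order after LMO2 degradation, in the third place at 14.3, than with LDB1 shRNA 1, in the sixth place at 4.22. The ratios of the LMO2 set carry the difference present before dTAGv1. From day 0 to day 4 alone the degron lines went up most for S1PR1 (6.91-fold), FILIP1L (6.06-fold) and PTGDR2 (4.58-fold), with EVI2B in the fifth place (3.77-fold). By the log2 change tied to the degron FILIP1L (1.84) and PTGDR2 (1.74) led, and S1PR1 (1.22) was in the fifth place. In HEL, EVI2B and S1PR1 led with pool 1 as well, at 3.30 and 2.14 log2, while with pool 2 PTGDR2 led at 0.88 log2, EVI2B stood at 0.62 and S1PR1 at 0.52. These orders were not tested.

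**Figure D5:**
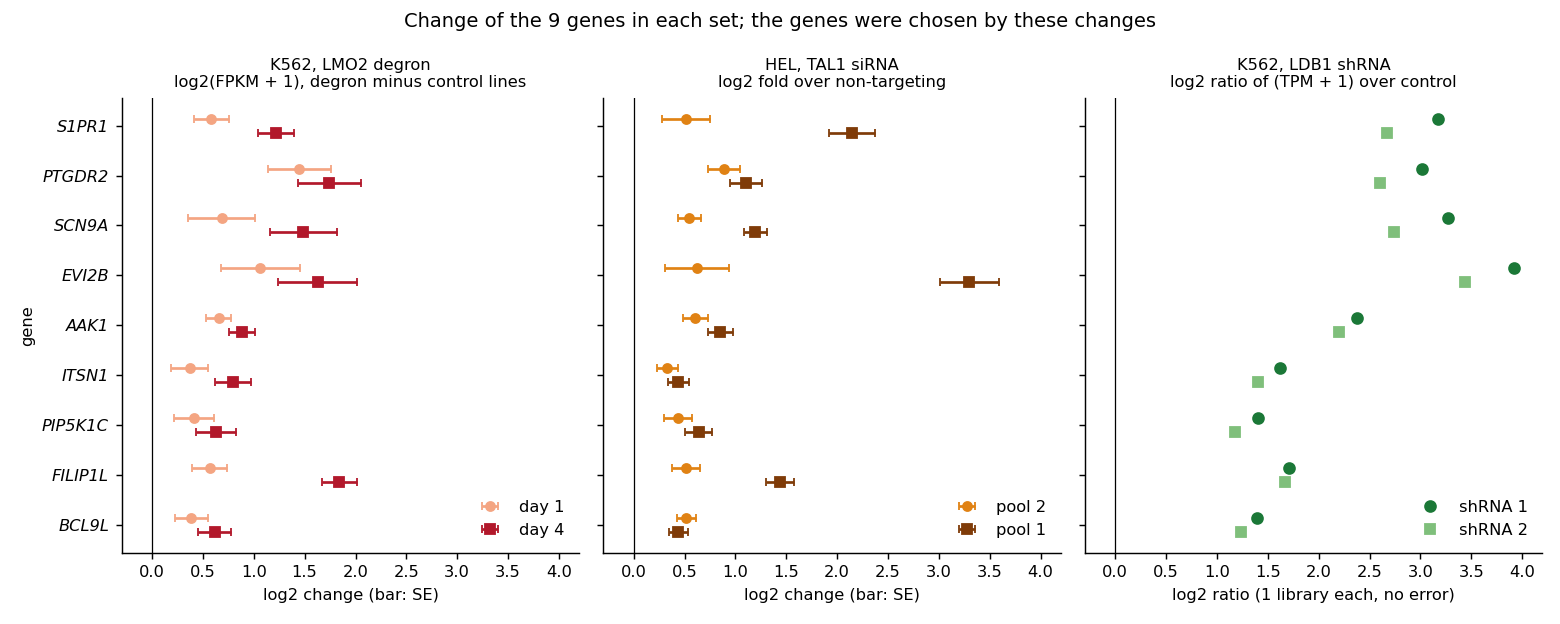
Change of the 9 genes on a log2 axis, in panels for LMO2 degradation in K562 (day 4 and day 1, with SE), the TAL1 pools in HEL (pool 2 and pool 1 against the non-targeting pool, with SE) and the LDB1 shRNAs in K562 (no error, 1 library each). The choice of the genes used these comparisons or may have used them, since its rule does not say which day or pool it read. EVI2B spans 0.62 (pool 2) to 3.93 (LDB1 shRNA 1), while BCL9L lies between 0.39 (day 1) and 1.39 (LDB1 shRNA 1).

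These 9 were part of a longer list. Of 8799 symbols tested in all 3 tables, 1133 were called higher after LMO2 degradation on day 4, 236 with pool 1 and 596 passed with both LDB1 shRNAs, and 41 did all 3: 3.62%, 17.4% and 6.88% of those lists. The 9 genes are among these 41, and the others include ITGAM, CTSS, CD84, PIK3CG and PLCG2, which act in leukocytes and were picked after the list was seen. When pool 2 was also required, 8 symbols were left, of which 4 are AAK1, SCN9A, PTGDR2 and BCL9L. No overlap here was tested.

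Genes beside the 9 on the chromosome moved in both directions in K562, and none was called in HEL. NF1, which holds EVI2B in an intron, rose by 0.36 log2 on day 4 (adjusted p 0.0384), and was at 0.03 with pool 1 (adjusted p 0.911). The 3 genes listed for the EVI2B locus, NF1, EVI2A and OMG, had a median of 1.41 log2 with pool 1 and 0.36 with pool 2. None of these 3 was called with either pool. CMSS1, which overlaps FILIP1L, fell by 1.09 log2 on day 4 (adjusted p 0.00688), and ANXA4, beside AAK1, rose by 0.84 (adjusted p 0.00264). TJP3, beside PIP5K1C, rose by 1.26 (adjusted p 0.0337; all limma or, for HEL, edgeR, Benjamini-Hochberg). CCDC86, CACTIN, CRYZL1 and ATP5PO passed in neither K562 nor HEL. CXCR5, whose exons share 3925 of the 10470 exon bases of BCL9L on the opposite strand in GENCODE v29, was listed at 0 FPKM throughout the degron set. SCN9A shares 1122 of 13741 exon bases with an antisense RNA, EVI2B 623 of 2072 with a read-through transcript, and PTGDR2 142 of 2895 with CCDC86. The sources used here do not give whether reads were counted by strand, so reads of such partners cannot be told apart.

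Close relatives of the genes were looked up in the same comparisons. For comparison, 11.6% of all genes rose on day 4, 2.56% with pool 1 and 0.491% with pool 2. In the LDB1 set 8.94% of all genes were higher. Of 17 paralogues listed, 9 were tested in the degron set and 2 rose on day 4: ITSN2 by 0.88 log2 (adjusted p 0.00367) and BCL9 by 0.59 (adjusted p 0.00737; limma, Benjamini-Hochberg), and none fell. PIP5K1A changed by 0.23, PIP5K1B by -0.25, GAK by 0.16 and BMP2K by 0.06 log2, none past the threshold. The receptor genes S1PR2 and S1PR5 were each at -0.03 log2. In HEL, 1 of 12 rose with pool 1, the sodium channel gene SCN3A, at a mean of 0.714 CPM, and none of 12 with pool 2. None of 6 passed in the LDB1 set. Of 12 other sodium channel genes, 1 was tested in K562 and did not pass, and of 4 tested in HEL SCN3A alone passed.

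Genes of the pathways around the 9 moved in both directions on day 4, when 11.6% of all genes rose and 8.18% fell. With pool 1, 2.56% of all genes rose and 1.65% fell, and with pool 2 0.491% rose and 0.563% fell. In the LDB1 set 8.94% of all genes were higher and 2.21% lower. Of 41 tested genes of clathrin endocytosis and PIP2, 8 rose and 5 fell on day 4, with a median of 0.06 log2, as over all genes (0.06). ARRB2, an arrestin, rose by 1.06 log2 (adjusted p 0.000195), and EPS15, a coat adaptor, by 0.81 (adjusted p 0.00329; limma, Benjamini-Hochberg). In HEL 0 of 45 rose and 1 fell with pool 1, 0 rose and 4 fell with pool 2, and in the LDB1 set 4 of 38 were higher and 0 lower. Of 17 genes of sphingosine phosphate and prostaglandin signalling, 2 rose and 4 fell on day 4, with a median of -0.03 log2. SGPL1, the lyase that breaks down sphingosine 1-phosphate, rose by 0.97 log2 (adjusted p 0.000706), while SPHK1, a kinase that makes it, fell by 1.35 (adjusted p 0.000717). MFSD2B, which exports it from red cells, fell by 1.28 (adjusted p 0.0181).

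In HEL 1 of 24 genes of that list rose with pool 1 and 0 with pool 2. It was HPGDS, named after its value was seen, which makes prostaglandin D2, the ligand of PTGDR2, and it rose by 1.01 log2 (adjusted p 0.000714; edgeR, Benjamini-Hochberg), against 0.31 with pool 2. Its mean was 0.0474 FPKM in the K562 set, below the filter. In the LDB1 set 5 of 15 were higher and 0 lower, beside 8.94% and 2.21% of all genes. Of 25 genes of beta-catenin transcription, 8 rose on day 4, among them CTNNB1 (beta-catenin itself, 0.58 log2, adjusted p 0.000757) and TLE4 (0.78, adjusted p 0.000903), and 1 fell, DVL1 (-0.77, adjusted p 0.000178; limma, Benjamini-Hochberg). The list's median was 0.12 log2, against 0.06 over all genes, of which 11.6% rose and 8.18% fell. With pool 1, 1 of 28 rose, TLE3, also named after its value was seen, and 0 with pool 2, and 1 of 22 was higher in the LDB1 set. FLNA and FLNC encode filamins, which cross-link actin filaments. On day 4 FLNA fell by 0.69 log2 (adjusted p 0.0363) and FLNC fell by 0.56 log2 (adjusted p 0.0154; limma, Benjamini-Hochberg), whereas with pool 1 FLNA rose by 0.43 log2 (adjusted p 0.00457; edgeR, Benjamini-Hochberg). In the LDB1 set FLNA had 773 TPM with shRNA 1 and 804 with shRNA 2, against 332 with the control shRNA, and FLNC had 313 with shRNA 1 and 342 with shRNA 2, against 156 with the control shRNA, both past the fold used for that set.

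Markers of cell types moved beside the 9 genes. The summed level of 10 erythroid markers was 323 to 400.4 FPKM in the degron lines on day 4, against 708 to 1617 FPKM in the control lines, and 4 fell and 1 rose. Of all genes, 8.18% fell and 11.6% rose on day 4. In HEL the erythroid sum was 3206 to 3595 CPM with pool 2 and 2672 to 3106 CPM with pool 1, against 4779 to 4905 CPM with the non-targeting pool. There 5 of the 10 fell with pool 2 and 6 with pool 1, beside 0.563% and 1.65% of all genes, and 0 rose with either pool. The sum of 8 monocyte and granulocyte markers was 93.6 to 118 FPKM in the degron lines on day 4, against 4.33 to 17.5 FPKM in the control lines. All 3 of those tested rose, CSF3R, ITGAM and LYZ, while MPO, CD14, S100A8, S100A9 and FCGR3B never reached 1 FPKM. In HEL that sum was 34.2 to 35.5 CPM with pool 2 and 54.0 to 60.5 CPM with pool 1, against 33.5 to 35.5 CPM with the non-targeting pool, so pool 1 alone stood apart, as it did for EVI2B. Of 3 tested in HEL, 0 rose with pool 2 and 2 with pool 1, beside 0.491% and 2.56% of all genes. Of 9 basophil and eosinophil markers, the cells that best show PTGDR2, none reached 1 FPKM in the K562 degron set, with FCER1A and CPA3 at 0. In the LDB1 set 1 of these 9 had at least 5 TPM in some library, and it was lower with both shRNAs (-2.34 log2). In HEL the sum of these markers was 1543 to 1667 CPM with pool 2 and 1968 to 2101 CPM with pool 1, against 1528 to 1670 CPM with the non-targeting pool. Of 6 tested in HEL, 2 rose and 0 fell with pool 1, and 1 rose and 1 fell with pool 2. The sum of 8 T cell markers was 25.6 to 51.0 FPKM in the degron lines on day 4, against 7.32 to 41.8 FPKM in the control lines, and 6 of the 8 never reached 1 FPKM. Of the 2 tested, 0 rose and 1 fell on day 4, with a median of -0.84 log2 for the change tied to the degron. Megakaryocyte markers summed to 1.76 to 2.90 FPKM in the degron lines on day 4, against 1.16 to 6.59 FPKM in the control lines, endothelial ones to 0.596 to 2.54, against 0.278 to 1.38 FPKM, and fibroblast ones to 1.56 to 3.94, against 0.543 to 2.84 FPKM. In HEL the T cell sum was 74.8 to 89.1 CPM with pool 2 and 86.1 to 96.1 CPM with pool 1, against 65.6 to 73.9 CPM with the non-targeting pool. The endothelial sum was 48.3 to 58.9 CPM with pool 2 and 48.02 to 73.3 CPM with pool 1, against 31.6 to 54.9 CPM with the non-targeting pool. With pool 1, 1 of 4 tested T cell markers rose, IL7R (0.79 log2, adjusted p 0.0204), and 2 of 4 endothelial ones, KDR (0.83, adjusted p 0.0226) and VWF (2.04, adjusted p 0.0459; edgeR, Benjamini-Hochberg), beside 2.56% of all genes. With pool 2 none of either list rose, beside 0.491% of all genes. In HEL the megakaryocyte sum was 988 to 1544 CPM with pool 2 and 1180 to 1437 CPM with pool 1, against 1009 to 1373 CPM with the non-targeting pool. None of 6 megakaryocyte markers tested was called with either pool, nor was the 1 fibroblast marker tested. In the LDB1 set 5 of 10 erythroid markers were lower and 0 higher, beside 2.21% and 8.94% of all genes. Of markers with at least 5 TPM there, 2 of 3 monocyte and granulocyte, 1 of 1 T cell and 1 of 1 fibroblast ones were higher. In the megakaryocyte list 0 of 2 were higher, and in these 4 lists 0 were lower. No endothelial marker reached that level. The part of these shifts in the values of the 9 genes was not tested.

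Over the 24 K562 libraries the 9 genes followed each other closely. On the log2(FPKM + 1) scale Pearson's r between pairs of them ran from 0.853 (S1PR1 and BCL9L) to 0.990 (SCN9A and ITSN1), as a description, since all share libraries, depth and the contrast that chose them. Among 12726 genes with a mean of at least 1 FPKM, those most like the mean of the 9 were MAP1A, SSBP2 and ACP2 (r = 0.985 each), PHTF1 and SDSL (0.982 each). SSBP2 encodes a partner that stabilises LDB1. On day 4 it rose by 0.84 log2 (adjusted p 0.00126; limma, Benjamini-Hochberg), while LDB1 RNA fell by 0.89 (adjusted p 0.00200).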

How the data were processed

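The 9 genes and every gene list were chosen with earlier results of these data known. For the degron set the authors deposited FPKM, for HEL raw counts per gene and for the LDB1 set TPM. The submitters' processing notes name hg19 with STAR, featureCounts and FastQC, without versions, annotation or strand setting. RNA came, per the labels' protocols, from phenol-chloroform extraction and the K562 and HEL libraries from different providers, so each test stayed within 1 table.

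The deposited FPKM were analysed as log2(FPKM + 1) for the 15348 genes that reached 1 FPKM in 2 or more of 24 libraries, in 1 model of 12 line-by-day groups (limma 3.58.1, R 4.3.3, trended and robust empirical Bayes). The deposited counts of the 9 HEL libraries were tested with edgeR 4.0.16 (quasi-likelihood, TMM, filterByExpr, 16688 genes). Adjusted p are Benjamini-Hochberg values over all genes tested, from limma in K562 and edgeR in HEL, and a call is one under 0.05. Intervals of 95% are model-based. For the deposited TPM, 12445 genes with at least 5 TPM in some library were counted where the log2 ratio on the (TPM + 1) scale was 1 or more in size with both shRNAs, with no test. Read numbers behind FPKM were recovered from their steps: the values of the 9 genes came out whole within 0.00531 of a read, and so did 75.0 to 76.3% of the low-level genes searched (within 0.02).

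For comparisons that chose the genes no p is printed, and their calls among the 9 are a description. Tested were line 2 minus line 1, LMO2 control minus parental and pool 2 minus pool 1, of which the first and the last may not be independent of the choice. The day 0 difference between the degron lines, the difference between bio reps, the within-bio-rep values and the ratios of means without each library were added after the data were seen. Bio rep numbers were read as pairing the degron-set libraries, since all 132 pairs with the same number deviated together (r = 0.119 to 0.662). The SE printed for the degron set are nevertheless those of the fit without the block. For the day 4 change of the 9 genes they ran from 0.13 (AAK1) to 0.39 (EVI2B) log2. With the block they ran from 0.11 (PIP5K1C) to 0.23 (PTGDR2). With 2 libraries a group, bio rep 2 mirrors bio rep 1 around the group mean. Each r therefore occurs for both numbers, and the 132 pairs are not independent.

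Besides the 9, genes were named by rule: the 3 targets, genes overlapping or neighbouring the 9, the paralogues, up to 4 of each list by smallest day 4 adjusted p (otherwise by level), and the 5 with the highest correlation to the mean of the 9. Exceptions are said to be named after their values were seen. Alternatives were the pseudocount (0.1), no filter, another scaling, DESeq2 1.42.0, the replicate block, 1 control line, only the 2 groups compared and leaving out each library. The fits were tested on simulated data. Promoter sequences are RefSeq's (GRCh38.p14), and exon overlaps were counted on the gene models of GENCODE v29, not of the files' build. The counts of 1 gene list are not reported here.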

Additional observations from a re-analysis of the deposited data

Results flagged for a closer look

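In 4 of the 9 genes the effect of the TAL1 pools in HEL differed between the pools by the test of the difference itself (edgeR, Benjamini-Hochberg). Pool 2 minus pool 1 was -2.68 log2 for EVI2B, -1.63 for S1PR1, -0.921 for FILIP1L and -0.649 for SCN9A, and in each all 3 pool 2 libraries were below all 3 pool 1 libraries. If pool 1 chose the genes, as its calls for all 9 allow, this difference is not independent of the choice, which by itself would favour lower values with pool 2. TAL1 RNA was much the same with both pools (177, 193 and 200.4 CPM with pool 2, and 162, 190 and 182 CPM with pool 1).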

How the results depend on the processing

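All 621 alternative values of the 9 genes in the comparisons with control lines, the non-targeting pool and the control shRNA, which the choice used or may have used, kept their positive sign. Numbers of called genes over the whole tables moved more, and the cause was not tested. For the day 1 change tied to the degron, 12 genes were called, against 45 without a filter, 167 with the replicate block, 0 with the parental line and 1 with the LMO2 control line as the only control, and 1 to 12 without 1 library. For day 4 there were 3040, against 5471 with the replicate block, 1763 with the parental line and 1675 with the LMO2 control line as the only control, and 2369 to 3313 without 1 library. For the difference between the degron lines on day 4 there were 2, against 1 with a pseudocount of 0.1, 65 without a filter, 4 with the replicate block and 1 without any 1 library. For LMO2 control minus parental there were 280, against 426 without a filter, 711 with the replicate block and 124 to 221 without 1 library. For pool 1 against non-targeting there were 704, against 1058 with DESeq2, 1084 without a filter, 2888 with the replicate block and 279 to 722 without 1 library. For pool 2 against non-targeting there were 176, against 377 with DESeq2, 418 without a filter, 1694 with the replicate block, 100 with only the 2 groups compared and 35 to 296 without 1 library. For pool 2 minus pool 1 there were 461, against 776 with DESeq2, 758 without a filter, 2431 with the replicate block and 128 to 592 without 1 library.

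In HEL, 6 of 9 pairs of libraries with the same replicate number deviated together (r = 0.0869 to 0.363 over all 9), so the numbers are not taken as pairing; with the block 7 of the 9 genes were called with pool 2. In the degron set the block changed the calls of single genes named in the text and no other call among the 9.

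Differences near 0 changed sign in these log2 values, none past the threshold. For line 2 minus line 1 on day 4, AAK1 was -0.0636 with a pseudocount of 0.1 and PIP5K1C 0.0237 with trimmed-mean rescaling. Without 1 library, that difference ran from -0.0192 to 0.161 for AAK1, -0.145 to 0.460 for SCN9A, -0.767 to 0.255 for EVI2B, -0.478 to 0.0361 for S1PR1, -0.0810 to 0.209 for BCL9L, -0.212 to 0.168 for PIP5K1C and -0.0126 to 0.136 for ITSN1. For LMO2 control minus parental, BCL9L was -0.00138 with trimmed-mean rescaling. Without 1 library that difference ran from -0.00282 to 0.0478 for AAK1, -0.230 to 0.642 for EVI2B, -0.0498 to 0.283 for FILIP1L and -0.174 to 0.247 for BCL9L. A pseudocount of 0.1 raised the day 4 change of S1PR1 to 2.13 and of FILIP1L to 2.43 log2.

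Depth limits S1PR1 and EVI2B in the K562 control lines (0 to 21 and 6 to 88 reads a library) and EVI2B in HEL (12 to 33 counts with the non-targeting pool). Of the ratios of mean FPKM, that of S1PR1 on day 0 (6.34, degron over control lines) alone moved by over 1.5 times without 1 library, to 13.1 without parental bio rep 2. In the degron set a library left out leaves a lone sample in its group, which is assumed to vary like the other groups. The LDB1 set has no replicates.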

Other observations

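Genes among the 41 that were called higher after LMO2 degradation on day 4, with TAL1 pool 1 and with both LDB1 shRNAs, and that are not among the 9, act in several places. AHNAK and ANXA6 are membrane-associated scaffold and annexin genes, SPTAN1 encodes a spectrin of the membrane skeleton, LASP1 and FNBP1 bind actin or bend membranes, SOCS2 dampens cytokine signals, and CTSS and CTSA are lysosomal enzymes. They were picked from the list after it was seen, and no test of a shared function was made.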
